A study of Mus musculus with 6 samples.

Results

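Autophagy is the process by which a cell wraps part of its cytoplasm, a damaged organelle or a microbe in a membrane vesicle, the autophagosome, and delivers it to the lysosome for breakdown. A kinase complex starts the process, a lipid kinase complex marks the site, and carrier proteins supply membrane. Enzymes that resemble those of ubiquitin conjugation then attach small proteins of the LC3 family to the growing membrane, and cargo receptors tie ubiquitin-tagged material to that coat. In microglia and other macrophages the pathway is known for clearing pathogens and damaged mitochondria and for limiting inflammasome activity, and the receptor gene Sqstm1 is also a known transcriptional target of NRF2. The group described here holds 35 genes of this machinery, taken by symbol from a fixed list: 5 of initiation, 5 of nucleation, 5 of membrane supply, 11 of conjugation, 5 of the LC3 family and 4 cargo receptors. All 35 were found among the 24411 gene rows of the count tables, and 34 passed the filter on low counts. Atg4a, which had 3 to 18 reads per library, did not.

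RNA was sequenced from primary microglia of 3-day-old ICR mice. Whole brains of 12 animals were pooled, mixed glia were grown in flasks, and the microglia were shaken off and plated again, with more than 92% CD11b-positive cells by flow cytometry according to the labels. All cells received FTY720 (fingolimod, a sphingosine analogue and immunosuppressant) at 1 µM. One group of 3 libraries had FTY720 alone for 4 h, and the other 3 libraries had FTY720 together with lipopolysaccharide (LPS, the bacterial ligand of Toll-like receptor 4) at 10 ng/ml for 4 h. Both groups carry the drug, so the comparison shows the effect of LPS in its presence; cells without FTY720 were not analysed here. The labels call the replicates independent RNA samples without saying whether cultures or animal pools were separate, so p-values measure the spread between these samples, which may be technical.

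The libraries held 2431775 to 3454647 gene reads on the sense strand, of which 28.8% to 59.0% fell on 3 rows that collect ribosomal RNA-like reads. The 35 autophagy genes took 6899 to 10221 reads per library. The ribosomal share differed most in the FTY720 group, where replicate 3 had 28.8% and replicates 1 and 2 had 47.9% and 59.0%. Of 10 microglia markers 8 were tested, 7 were higher with LPS and 0 were lower, and their summed level was 1640 to 1820 CPM (read counts scaled to library size, with TMM factors) with FTY720 and 2541 to 2864 with LPS. Markers of other cells were present at low levels. Oligodendrocyte-lineage markers summed to 270 to 295 CPM with FTY720 and 143 to 164 with LPS (5 of 6 tested lower), and neuron markers to 181 to 243 and 98.3 to 110 (3 of 3 tested lower). Astrocyte markers summed to 87.7 to 108 and 100.1 to 139 CPM (2 of 6 tested higher, 1 lower), fibroblast and mural markers to 57.6 to 142 and 106 to 166 (0 of 5 changed), and monocyte and border macrophage markers to 69.4 to 76.6 and 109 to 138 (2 of 2 higher). Most of the monocyte and border macrophage sum came from Mrc1, with means of 69.3 CPM with FTY720 and 113 with LPS. The other higher gene, Pf4, had means of 3.71 and 8.17, while Ccr2, Cd163 and Lyve1 had means of 0.112 to 1.03 and were not tested. Most of the fibroblast and mural sum came from Fn1 (means of 70.7 and 97.0 CPM). Rgs5 and Ly6c2 had 0 reads in all libraries. The part of these other cells in the values below was not tested, and in bulk RNA fewer cells of a type and less RNA per cell cannot be told apart.

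The promoter windows of some members, among them those with the largest rise and fall, are shown first, since 23 of the 34 tested genes changed. They are the 250 bases before the RefSeq transcription start on GRCm38.p6, read 5′ to 3′ on the strand of the gene. Sqstm1 (chr11:50210821-50211070, minus strand) rose most, Wipi2 (chr5:142629334-142629583, plus strand) rose among the membrane genes, Uvrag (chr7:99141145-99141394, minus strand) fell most, Gabarapl1 (chr6:129532942-129533191, plus strand) fell while Gabarap, Gabarapl2 and Map1lc3b rose (Gabarap and Map1lc3b turned below 0 once the expression trend was removed), and Atg3 (chr16:45158579-45158828, plus strand) holds the only pair of E-box cores among the members. Capitals mark letters that match one of the motifs listed after the sequences, and a window in lower case throughout holds none of them.
Sqstm1: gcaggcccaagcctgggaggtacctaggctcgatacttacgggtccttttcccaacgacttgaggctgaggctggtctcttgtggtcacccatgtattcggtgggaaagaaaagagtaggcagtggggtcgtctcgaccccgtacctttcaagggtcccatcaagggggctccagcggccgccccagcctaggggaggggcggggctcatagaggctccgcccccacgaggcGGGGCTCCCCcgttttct
Wipi2: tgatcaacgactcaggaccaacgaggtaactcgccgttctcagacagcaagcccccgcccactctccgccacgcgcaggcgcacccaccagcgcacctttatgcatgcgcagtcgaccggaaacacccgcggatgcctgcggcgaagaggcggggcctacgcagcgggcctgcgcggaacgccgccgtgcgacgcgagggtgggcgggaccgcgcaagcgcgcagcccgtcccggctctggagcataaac
Uvrag: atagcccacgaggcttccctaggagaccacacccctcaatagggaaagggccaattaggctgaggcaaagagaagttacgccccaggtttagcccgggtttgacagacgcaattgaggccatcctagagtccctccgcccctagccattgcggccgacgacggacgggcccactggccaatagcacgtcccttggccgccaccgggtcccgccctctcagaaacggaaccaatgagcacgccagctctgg
Gabarapl1: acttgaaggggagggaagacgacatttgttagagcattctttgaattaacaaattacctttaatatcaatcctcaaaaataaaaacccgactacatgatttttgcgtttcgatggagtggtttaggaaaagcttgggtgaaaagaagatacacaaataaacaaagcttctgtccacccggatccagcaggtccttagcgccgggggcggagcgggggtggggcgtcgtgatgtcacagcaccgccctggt
Atg3: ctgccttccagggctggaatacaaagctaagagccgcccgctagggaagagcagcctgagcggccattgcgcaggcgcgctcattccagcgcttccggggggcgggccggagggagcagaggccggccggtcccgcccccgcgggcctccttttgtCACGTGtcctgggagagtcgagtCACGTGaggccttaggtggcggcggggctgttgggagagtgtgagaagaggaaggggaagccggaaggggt

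Windows that also hold the 50 bases after the start were found for 29 of the 35 genes (32 windows) and searched on both strands. Some windows, among them those of Atg7, Atg14 and Wipi2, lie inside the gene as GENCODE M21 annotates it, at internal starts. That of Atg7 begins at chr6:114670846, while the gene begins at 114643097 on the same strand. The E-box core CACGTG, which TFEB-family and other basic helix-loop-helix factors recognise, lay in 4 of 32 windows (12.5%) against 7.15% of all 32817 windows; they belong to Atg3, Atg5, Atg7 and Atg14. The antioxidant response core TGACNNNGC lay in 9.38% of the member windows (Atg13, Map1lc3b and Ulk2) and in 12.4% of all windows. The NF-κB consensus lay in 6.25% (Sqstm1, starting 18 bases before the start, and Atg16l2) against 4.50% of all. The FoxO core GTAAACA lay in 0 of 32 windows and in 3.65% of all. These matches are letters in a sequence, and genes that rose and genes that fell are both among them: of the 4 genes with an E-box core, Atg3 and Atg14 rose, Atg7 fell and Atg5 did not pass the test.

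LPS changed the autophagy genes in both directions. In edgeR's quasi-likelihood test 14 of the 34 tested genes were higher and 9 lower at an adjusted p under 0.05, while 23.3% of all 10124 tested genes were higher and 22.7% lower (46.0% in either direction). Here and beside each role below, these shares over all genes are not matched for mean expression, with which they changed. The median log2 fold change was 0.22 over the 34 genes and -0.04 over all tested genes. Of the 34 genes, 15 had every LPS library above every FTY720 library and 10 had every LPS library below, against 27.1% and 26.9% of all tested genes. Sqstm1, Ulk1, Wipi2 and Atg101 rose more than 2-fold, and Uvrag, Atg4c and Calcoco1 fell by more than that. These 7 genes, together with Atg7, Gabarapl1 and Nbr1, which fell, were called under each of the 14 alternative settings tried.

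**Figure D1:**
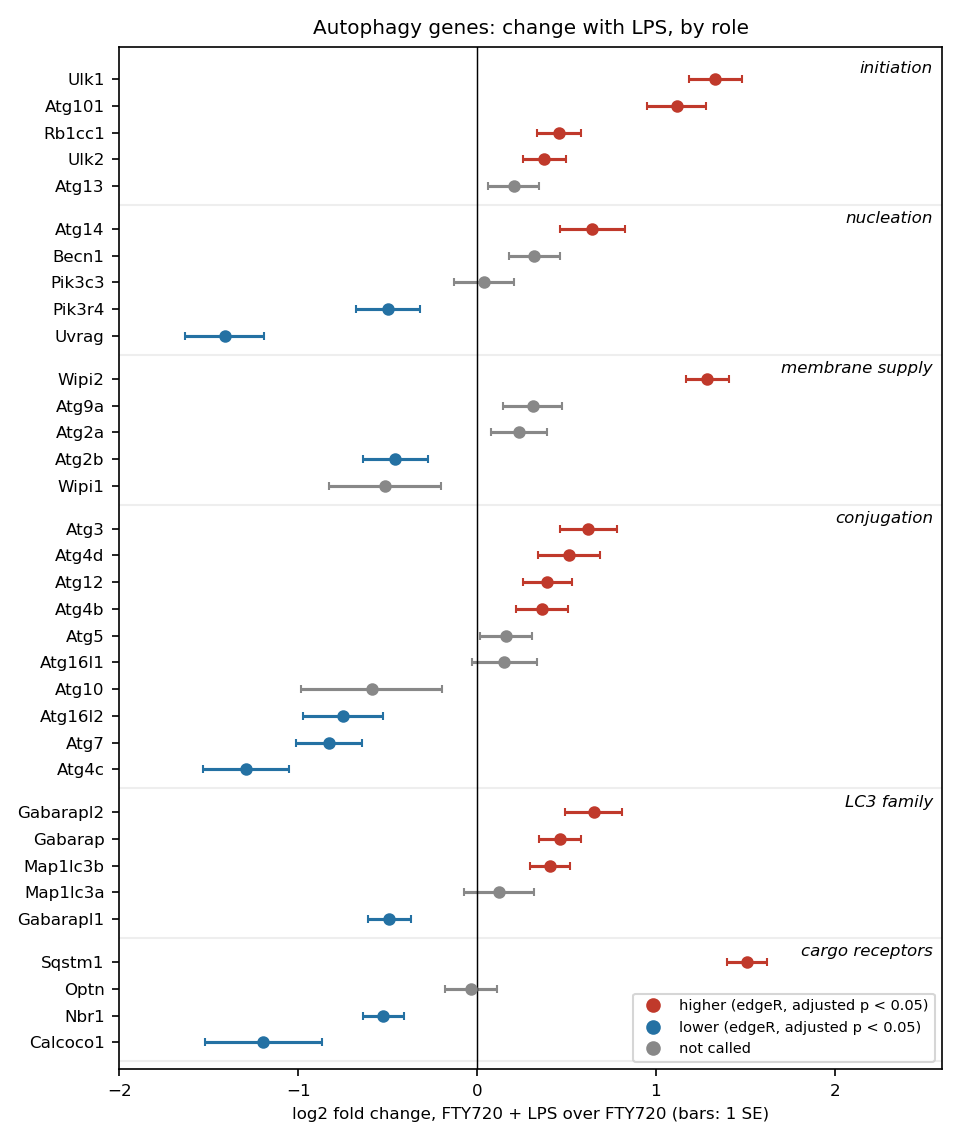
Log2 fold change of each tested member (x axis, FTY720 with LPS over FTY720 alone, n = 3 per group), grouped by role, with bars of 1 standard error; red, blue and grey mark genes higher, lower and not passing the edgeR test. Initiation genes lie to the right of 0 (Ulk2 turns to -0.05 with the expression trend removed and Atg13 to -0.11 with total library size alone), while each other group holds genes on both sides, from Sqstm1 at 1.51 to Uvrag at -1.41.

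The split depended on scaling and on mean expression. Across all genes the median log2 fold change rose with expression, from -0.28 in 4132 genes under 4 mean log2 CPM to 0.60 in 714 genes at 7 and over. The 7 members in that top range had a median of 0.41, with 6 higher and 1 lower, where 74.2% of all genes in the range were higher and 7.70% lower. In the ranges under 4, 4 to 5, 5 to 6 and 6 to 7, 10.7%, 16.9%, 29.4% and 41.6% of all genes were higher. In the same order 26.7%, 24.5%, 21.9% and 14.5% were lower. Of the 4, 7, 12 and 4 members there, 0, 2, 4 and 2 were higher and 2, 3, 2 and 1 lower. With the trend of fold change on expression removed, 8 members were higher and 8 lower (20.2% and 19.1% of all genes), and the median of the members was -0.00. With total library size alone, which shifted the median of all genes from -0.04 to -0.36, 4 members were higher and 9 lower (7.52% and 26.5% of all genes). The 4 were Ulk1, Atg101, Wipi2 and Sqstm1. Upper-quartile factors, with a median of -0.17 over all genes, gave 10 higher and 9 lower, without Ulk2, Atg4b, Atg4d and Atg12. Of all calls, 50.7% were higher as reported, 38.8% with upper-quartile factors and 22.1% with total library size.

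**Figure D2:**
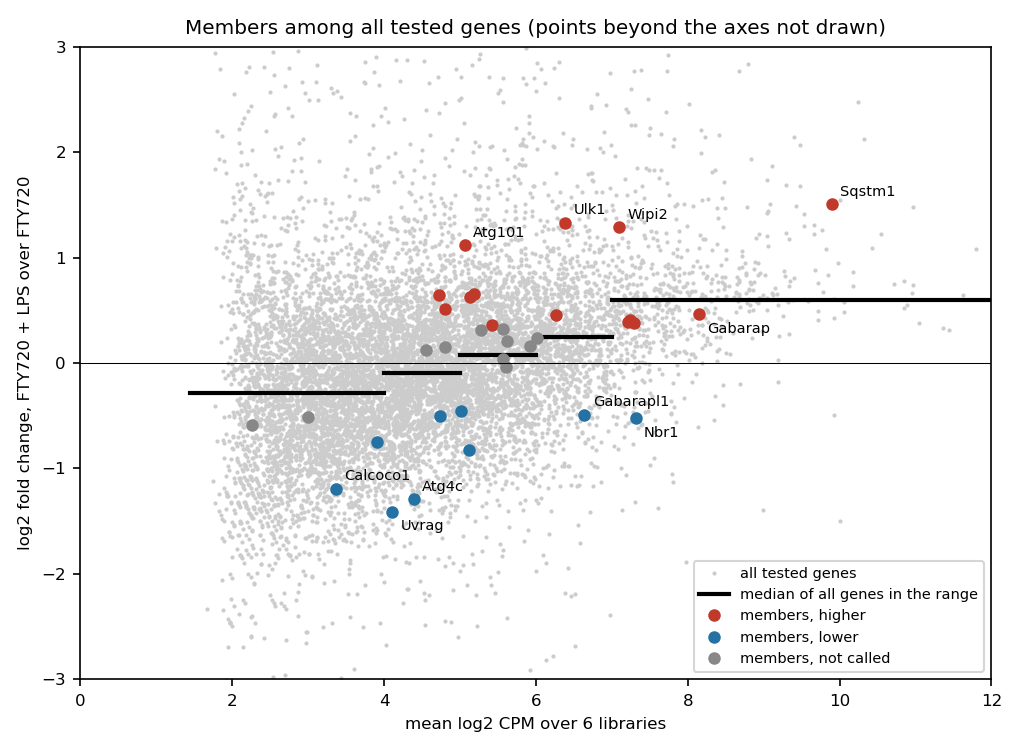
Log2 fold change (y axis) against mean log2 CPM over the 6 libraries (x axis) for all tested genes (grey) and for the members (coloured by call); black lines give the median of all genes in each expression range, and points beyond the axes are not drawn. The line climbs from -0.28 to 0.60, and Sqstm1, Ulk1, Wipi2 and Atg101 lie well above it, while Nbr1 and Gabarapl1 lie well below.

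Genes of the initiation kinase complex were higher in 4 of 5 cases and lower in 0, and their median was 0.46 on the log2 scale. Of all tested genes 23.3% were higher and 22.7% lower, and each role holds few genes. Ulk1, the kinase that starts autophagy when nutrient signalling falls, stood at 54.8, 53.8 and 37.4 CPM in FTY720 replicates 1 to 3 and at 111, 115 and 139 CPM with LPS. The lowest LPS value lay 2-fold above the highest FTY720 value, and the gene was 2.52-fold higher (log2 fold change 1.33 ± 0.15, SE, n = 3 per group, adjusted p = 1.38e-07). Atg101, a subunit that stabilises Atg13, was at 17.5, 23.2 and 23.0 CPM and at 48.1, 42.6 and 48.4 with LPS, 2.17-fold higher (1.12 ± 0.17, adjusted p = 8.32e-06). The groups were far apart for this gene too.

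The other initiation genes moved less. Rb1cc1, which encodes the scaffold FIP200, rose from 64.5, 66.5 and 62.6 CPM to 88.6, 84.7 and 92.7 (0.46 ± 0.12, adjusted p = 0.0043). Ulk2, the paralogue of Ulk1, was at 125, 125 and 158 CPM and at 163, 179 and 190.0 with LPS (0.38 ± 0.12, adjusted p = 0.0142). FTY720 replicate 3 nearly reached the LPS values of Ulk2, and its call ended without FTY720 replicate 1 (0.32, adjusted p = 0.0845) or FTY720_LPS replicate 2 (0.39, adjusted p = 0.0523). With the expression trend removed or with total library size alone, neither Rb1cc1 (0.25 and 0.14) nor Ulk2 (-0.05 and 0.02) was called. Atg13, the regulatory subunit, was at 39.3, 48.4 and 47.4 CPM with FTY720 and at 52.2, 56.6 and 46.9 with LPS, and it did not pass the test (0.20 ± 0.14, adjusted p = 0.257).

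The nucleation complex makes phosphatidylinositol 3-phosphate. It had 1 gene higher and 2 lower of 5, beside 23.3% and 22.7% of all tested genes. Its interchangeable subunits moved in opposite directions. Atg14 directs the kinase Vps34 to autophagosome formation, and Uvrag takes its place in a complex of the endosomal route. Atg14 was at 17.8, 20.2 and 23.0 CPM with FTY720 and at 28.9, 37.9 and 29.2 with LPS, 1.56-fold higher (0.64 ± 0.18, adjusted p = 0.00602). Without FTY720_LPS replicate 2 it was not called (0.52, adjusted p = 0.0556), nor was it with total library size alone (0.32, adjusted p = 0.434). Uvrag was at 24.5, 23.9 and 20.6 CPM and at 9.01, 7.24 and 9.57 with LPS, 2.66-fold lower (-1.41 ± 0.22, adjusted p = 1.82e-05). Its counts were 71 to 87 reads per FTY720 library and 17 to 24 per LPS library, so the groups lay well apart.

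Of the core subunits of the complex, Pik3r4 was called lower, and Becn1 and Pik3c3 did not pass the test. Pik3r4, the regulatory subunit Vps15, was at 30.9, 32.9 and 26.5 CPM and at 18.8, 24.3 and 20.7 with LPS (-0.50 ± 0.18, adjusted p = 0.0278), a call that DESeq2 (-0.49, adjusted p = 0.0912) and 4 of the 6 fits leaving out 1 library did not give (FTY720 replicates 1 and 2 and FTY720_LPS replicates 1 and 3, adjusted p 0.0755 to 0.164). Becn1, the scaffold beclin 1, was at 42.0, 45.7 and 37.9 CPM and at 48.8, 56.6 and 50.9 with LPS. These groups did not overlap, yet the gene missed the threshold (0.32 ± 0.14, adjusted p = 0.0728). Leaving out FTY720 replicate 2 brought it past (0.41, adjusted p = 0.0431). Pik3c3, the catalytic subunit Vps34, was at 34.9, 43.7 and 58.5 CPM with FTY720, a range that held the LPS values of 51.8, 46.4 and 43.8 (0.04 ± 0.17, adjusted p = 0.866).

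Within the reads of the 5 nucleation genes, a measure that does not depend on library scaling, Atg14 took 12.6% ± 1.05 with FTY720 and 19.8% ± 1.93 with LPS (SD, n = 3), and Uvrag 14.4% ± 1.98 and 5.38% ± 1.05. The exact two-sided permutation p was 0.1 for both, the smallest that 3 against 3 libraries allow, and 0.14 after adjustment over 35 shares.

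Of the genes that bring membrane and lipid to the forming autophagosome, 1 of 5 was higher and 1 lower. These counts are near the 23.3% and 22.7% of all tested genes. Wipi2, which binds phosphatidylinositol 3-phosphate and recruits Atg16l1, was at 80.3, 82.0 and 78.9 CPM with FTY720 and at 178, 189 and 223 with LPS, 2.44-fold higher (1.29 ± 0.12, adjusted p = 6.65e-09). The FTY720 libraries differed by little, and every LPS library was more than 2-fold above them. Wipi1, its paralogue, was scarce, at 7.06, 11.4 and 7.11 CPM and at 4.50, 6.81 and 6.55 with LPS, and did not pass the test (-0.52 ± 0.31, adjusted p = 0.185). Wipi2 reads outnumbered Wipi1 reads by 11.4, 7.18 and 11.1 to 1 with FTY720 and by 39.5, 27.7 and 34.1 to 1 with LPS.

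Atg2a and Atg2b encode lipid transfer proteins. Atg2b was at 37.6, 44.0 and 27.7 CPM and at 26.3, 26.8 and 25.7 with LPS, which passed the test narrowly (-0.46 ± 0.18, adjusted p = 0.0438). Removing the expression trend (adjusted p = 0.0524) or using DESeq2 (adjusted p = 0.112) ended that call, and so did leaving out any 1 library other than FTY720 replicate 3 (adjusted p 0.109 to 0.263). Without FTY720 replicate 2 the value was -0.27. Atg2a was at 69.2, 65.2 and 43.6 CPM and at 62.3, 71.1 and 74.6 with LPS (0.23 ± 0.16, adjusted p = 0.235), with overlapping groups. Atg9a, the membrane-spanning lipid scramblase, was at 41.3, 32.9 and 28.9 CPM and at 43.5, 38.7 and 44.8 with LPS (0.31 ± 0.16, adjusted p = 0.123), and passed only without FTY720 replicate 1 (0.46, adjusted p = 0.0494). Of its annotated exonic bases 1832 are shared with Gm29253 on the same strand, so its counts are less certain.

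**Figure D3:**
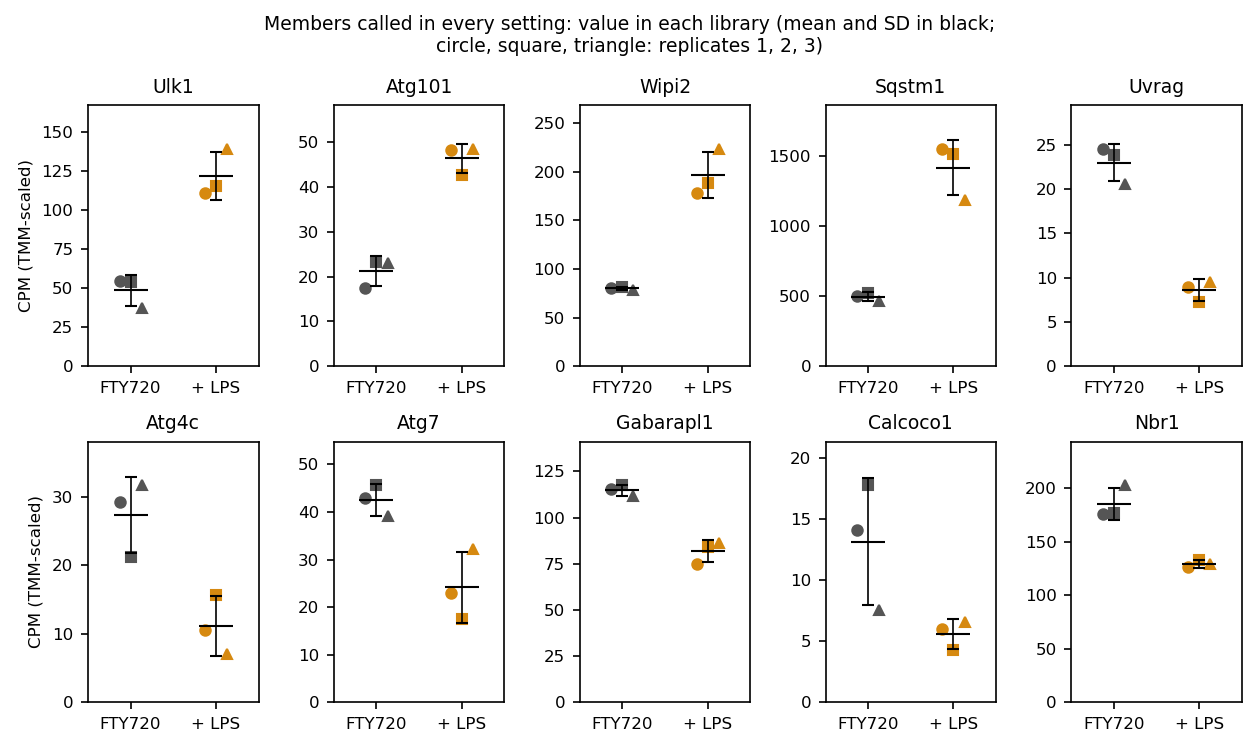
TMM-scaled CPM (y axis, from 0) in each library for the 10 members that passed the test under every setting tried; symbols are replicates 1, 2 and 3, and black marks give the mean and SD (n = 3). In each panel all LPS libraries lie on one side of all FTY720 libraries, and the gap is narrowest for Calcoco1, where FTY720 replicate 3 had 7.58 CPM and the highest LPS library 6.55.

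Of the conjugation genes 4 of 10 tested were higher and 3 lower, beside 23.3% and 22.7% of all tested genes. The enzymes of LC3 attachment diverged: Atg7, the activating enzyme at the head of both conjugation branches, fell, while Atg3, the enzyme that passes LC3 to its lipid, rose. Atg7 was at 43.0, 45.7 and 39.1 CPM with FTY720 and at 22.9, 17.5 and 32.2 with LPS, 1.77-fold lower (-0.83 ± 0.19, adjusted p = 0.000943). LPS replicate 3 was the highest of its group and still below each FTY720 library. Atg3 was at 25.9, 24.5 and 31.3 CPM and at 38.7, 45.6 and 42.8 with LPS, 1.54-fold higher (0.62 ± 0.16, adjusted p = 0.00306), but not with total library size alone (0.28, adjusted p = 0.481).

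The Atg4 proteases, which trim LC3 proteins and later release them from membranes, moved apart. Atg4c fell from 29.2, 21.2 and 31.8 CPM to 10.5, 15.8 and 7.05, 2.45-fold lower (-1.29 ± 0.24, adjusted p = 0.000137). With unstranded counts the fall was smaller (-0.85). Opposite-strand reads at this gene numbered 29 with FTY720 and 41 with LPS, beside 284 and 79 sense reads. These are raw totals, and the scaled size of every LPS library was smaller than that of every FTY720 library. A count of 3 reads stood for 0.711 to 1.01 CPM with FTY720 and 1.13 to 1.51 with LPS. The rise in opposite-strand reads is therefore larger in CPM than in raw reads. Atg4d was at 23.2, 18.8 and 25.6 CPM and at 31.9, 33.2 and 32.2 with LPS (0.51 ± 0.17, adjusted p = 0.0184). It lost its call without FTY720 replicate 2 (adjusted p = 0.0669) or FTY720_LPS replicate 2 (adjusted p = 0.0547). Under total library size alone it stood at 0.17 (adjusted p = 0.693). Atg4b, regarded as the main protease of the family, was at 39.0, 37.6 and 35.3 CPM and at 46.9, 52.8 and 43.8 (0.36 ± 0.15, adjusted p = 0.0448), a call that 13 of 14 alternatives did not give, among them DESeq2 (adjusted p = 0.0994) and every fit leaving out 1 library except FTY720_LPS replicate 3 (adjusted p 0.0521 to 0.177). Atg4a had too few reads to test, at 3.02 to 4.27 CPM with FTY720 and 1.28 to 4.03 with LPS.

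Atg12, the ubiquitin-like protein of the other branch, was at 109, 110.2 and 163 CPM with FTY720 and at 167, 173 and 164 with LPS (0.39 ± 0.14, adjusted p = 0.023). FTY720 replicate 3 stood at the level of the LPS libraries. Its call was absent without FTY720 replicate 1 (0.29, adjusted p = 0.141), FTY720 replicate 2 (0.32, adjusted p = 0.0572) or FTY720_LPS replicate 2 (0.39, adjusted p = 0.0789), and its direction turned with the expression trend removed (-0.01, adjusted p = 0.944). Atg5, to which Atg12 is joined, was at 51.4, 55.4 and 63.5 CPM and at 72.8, 66.0 and 51.4 with LPS (0.16 ± 0.15, adjusted p = 0.38), and Atg10, the enzyme that joins them, at 3.36 to 5.69 and 2.25 to 5.04 CPM (-0.59 ± 0.39, adjusted p = 0.229). Both groups of values overlapped. Atg16l1, the scaffold that places the Atg12 and Atg5 pair on the membrane, was at 26.5, 21.2 and 29.6 CPM and at 33.4, 24.7 and 28.2 with LPS (0.15 ± 0.18, adjusted p = 0.512). Its paralogue Atg16l2 fell from 19.8, 16.5 and 16.1 CPM to 9.76, 9.79 and 11.6, 1.68-fold lower (-0.75 ± 0.22, adjusted p = 0.00865, and 0.0525 without FTY720_LPS replicate 1).

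In the LC3 family, 3 of 5 genes were higher and 1 lower, beside 23.3% and 22.7% of all tested genes. Of the 3 higher genes, 2 turned below 0 with the expression trend removed. Gabarap, the family's most abundant transcript per length, was at 228, 207 and 276 CPM with FTY720 and at 314, 309.6 and 361 with LPS, 1.38-fold higher (0.47 ± 0.12, adjusted p = 0.00257). Map1lc3b, the LC3 form most used as an autophagosome marker, was at 133, 130.0 and 125 CPM and at 163, 180.1 and 171 with LPS (0.41 ± 0.11, adjusted p = 0.00432). Gabarapl2 was at 23.5, 29.9 and 30.8 CPM and at 49.2, 41.7 and 41.8 with LPS, 1.57-fold higher (0.65 ± 0.16, adjusted p = 0.0021). The groups did not overlap for any of these 3 genes. Gabarap and Map1lc3b are abundant, and with the expression trend removed the values were -0.14 and -0.02, while Gabarapl2 stayed at 0.62. With total library size alone none of the 3 was called (0.10, 0.09 and 0.33).

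Gabarapl1 went the other way. It was at 115, 118 and 112 CPM with FTY720 and at 75.1, 84.3 and 86.2 with LPS, 1.40-fold lower (-0.49 ± 0.12, adjusted p = 0.00194), and under the alternatives it ranged from -0.81 to -0.40. Of the reads of the 5 family members it held 21.7% ± 1.75 with FTY720 and 12.6% ± 0.603 with LPS (SD, n = 3; exact permutation p = 0.1, adjusted 0.14). Map1lc3a was at 16.8, 26.2 and 22.5 CPM and at 22.9, 21.7 and 27.2 with LPS (0.12 ± 0.20, adjusted p = 0.635). Members of this family resemble each other and processed copies elsewhere in the genome, and reads that map to several places are not in these counts, so their levels are uncertain.

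Among the 4 cargo receptors, 1 was higher and 2 lower, beside 23.3% and 22.7% of all tested genes. Sqstm1 encodes p62, which binds ubiquitin chains and LC3, and also NF-κB and NRF2 pathway proteins. It was the most abundant member in reads, at 503, 525 and 466 CPM with FTY720 and at 1550.4, 1511 and 1190.1 CPM with LPS, 2.85-fold higher (1.51 ± 0.11, adjusted p = 1.61e-10). Every LPS library was more than 2-fold above every FTY720 library, with LPS replicate 3 the lowest of its group. With the expression trend removed the value was 0.64 and still called. Sqstm1 alone made up 19.2% to 22.3% of all reads of the 35 genes with FTY720 and 33.8% to 41.5% with LPS. The summed level of the 35 genes was 2318 to 2422 CPM with FTY720 and 3521 to 3762 with LPS, and without Sqstm1 1815 to 1956 and 2182 to 2331.

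The other receptors did not follow Sqstm1. Nbr1, a receptor of similar domain layout that acts with p62, was at 176, 177 and 203 CPM and at 126, 133 and 129 with LPS, 1.44-fold lower (-0.52 ± 0.11, adjusted p = 0.000623). Removing the expression trend gave -0.95. Calcoco1, known as a receptor for endoplasmic reticulum and Golgi, fell 2.29-fold from 14.1, 17.8 and 7.58 CPM to 6.01, 4.26 and 6.55 (-1.19 ± 0.33, adjusted p = 0.005), with 10 to 16 reads per LPS library. FTY720 replicate 3 was close to the LPS values for this gene. Optn, optineurin, a receptor for bacteria and mitochondria, was at 45.7, 47.0 and 52.4 CPM and at 51.1, 50.7 and 39.8 with LPS, with overlapping groups (-0.03 ± 0.15, adjusted p = 0.872).

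Ratios within a library, which no scaling can change, were compared for 8 pairs of related members. The ratio of Sqstm1 to Nbr1 reads was 2.85, 2.97 and 2.30 with FTY720 and 12.3, 11.4 and 9.23 with LPS, 4.05-fold higher. That of Wipi2 to Wipi1 was 3.45-fold higher and that of Atg4b to Atg4c 3.28-fold higher, from 1.33, 1.78 and 1.11 to 4.46, 3.35 and 6.21. Gabarap to Gabarapl1 went from 1.98, 1.76 and 2.47 to 4.18, 3.67 and 4.19, and Ulk1 to Ulk2 from 0.438, 0.429 and 0.237 to 0.680, 0.644 and 0.732. Atg16l1 to Atg16l2 was 1.88-fold and Atg2a to Atg2b 1.62-fold higher. In these 7 pairs the groups did not overlap, with an exact two-sided permutation p of 0.1 each, the smallest possible, and 0.114 adjusted over 8 pairs. The pairs were not part of the planned comparisons. Sqstm1 to Nbr1, Atg4b to Atg4c and Gabarap to Gabarapl1 set a gene called higher over a gene called lower in these same data. Ulk1 to Ulk2, Wipi2 to Wipi1, Atg2a to Atg2b and Atg16l1 to Atg16l2 likewise set the gene with the higher log2 fold change on top. The separation of these 7 pairs therefore adds no support to the calls, and the share among all pairs of genes was not computed. The ratio of Map1lc3b to Map1lc3a overlapped between the groups (exact permutation p = 0.3).

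**Figure D4:**
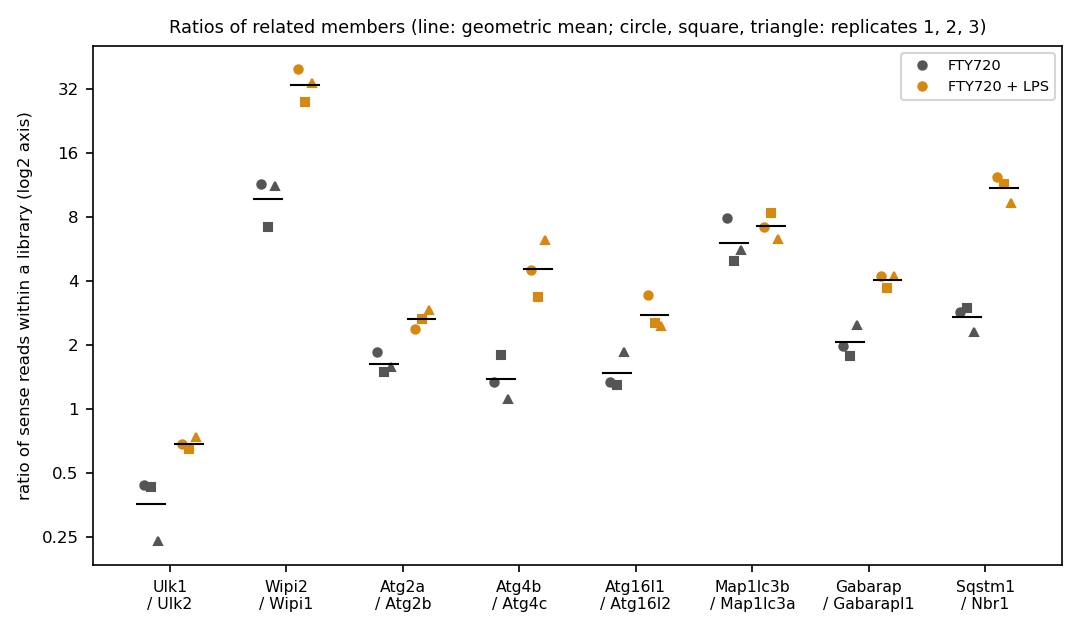
Ratio of the sense reads of 2 related members within each library (y axis, log2 scale), for FTY720 (grey) and FTY720 with LPS (orange); symbols are replicates 1, 2 and 3, and lines are geometric means. All pairs but Map1lc3b to Map1lc3a have every LPS library above every FTY720 library, with the widest gap for Sqstm1 to Nbr1.

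Levels of different genes were compared as CPM per kilobase of annotated exon, which assumes that the counted exons match GENCODE M21. With FTY720, Sqstm1 (148 ± 8.89, SD, n = 3) and Gabarap (128 ± 19.2) stood highest and overlapped each other. Gabarapl1 followed at 57.0 ± 1.50, apart from its neighbours on both sides. From Nbr1 (27.0 ± 2.21) at rank 4 down to Becn1 (5.93 ± 0.551) at rank 22, neighbours in the order overlapped, and Atg4a (1.42 ± 0.248) was lowest. With LPS, Sqstm1 (422 ± 58.9), Gabarap (178 ± 15.6) and Gabarapl1 (40.7 ± 2.95) were each apart from the next. Nbr1 moved from rank 4 to rank 11 and Atg101 from rank 10 to rank 5, while Uvrag (0.953 ± 0.135) came last.

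Other genes of the pathway were taken from 5 lists of known regulators and partners. Of 66 tested, 16 were higher and 21 lower, beside 23.3% and 22.7% of all tested genes, and the median was -0.17 on the log2 scale. With total library size alone 1 was higher and 21 lower, beside 7.52% and 26.5% of all genes. The counts of each list stand against the same 23.3% and 22.7%.

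The genes of autophagosome fusion with the lysosome were mostly lower, with 8 of 12 lower (66.7%) and 3 higher. Plekhm1, an adaptor that links Rab7 to the HOPS tethering complex, fell from 104 ± 8.36 to 38.9 ± 4.02 CPM (SD, n = 3; -1.41 ± 0.14, SE, adjusted p = 1.47e-08). Stx17, the syntaxin of the autophagosome, fell from 34.1 ± 7.06 to 15.2 ± 0.385 CPM (-1.18 ± 0.20, adjusted p = 3.97e-05). Vps33a, a HOPS subunit, fell from 53.6 ± 5.11 to 27.5 ± 2.94 CPM (-0.96 ± 0.16, adjusted p = 2.75e-05). Of the other HOPS subunits, Vps11, Vps18, Vps39 and Vps41 were lower and Vps16 did not pass (-0.23 ± 0.15, adjusted p = 0.228). Vamp8, a SNARE gene, was lower too. The higher genes were Rab7 and the SNARE-family genes Snap29 and Ykt6.

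Among 20 genes of mTORC1 and AMPK, the kinase systems that restrain and promote autophagy, 4 were higher (20.0%) and 7 lower (35.0%). Rragd, a Rag GTPase of the lysosomal amino acid signal, fell from 56.8 ± 6.56 to 16.6 ± 1.56 CPM (-1.79 ± 0.17, adjusted p = 9.43e-09). Akt1s1, which encodes the mTORC1 inhibitor PRAS40, and Depdc5, a subunit of a Rag inhibitor, fell by 1.06 ± 0.23 (adjusted p = 0.00058) and 1.03 ± 0.17 (adjusted p = 3.73e-05) on the log2 scale. The 4 genes of the TFEB family, transcription factors of lysosome and autophagy genes, had 1 lower and 0 higher. Tfeb itself was scarce, with 25, 24 and 27 reads in the FTY720 libraries and 6, 8 and 5 with LPS (-1.46 ± 0.35, adjusted p = 0.00178).

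Other regulators and phagophore proteins had 4 of 12 tested genes higher and 3 lower. The mouse C9orf72 gene, listed as 3110043O21Rik, rose from 74.6 ± 8.92 to 162 ± 7.06 CPM (1.12 ± 0.12, adjusted p = 9.29e-08). Nrbf2, a partner of the Atg14 complex, rose by 0.89 ± 0.27 (adjusted p = 0.00953, 0.0512 without FTY720_LPS replicate 1, and 0.215 with total library size alone), and Tecpr1, a tethering protein, fell by 1.06 ± 0.18 (adjusted p = 4.09e-05). The last list held 18 other receptors and partners of selective autophagy, among them Pink1, Park2, Tbk1 and Wdfy3, which are not receptors. Of these 18 genes 5 were higher and 2 lower, so 38.9% passed the test in either direction beside 46.0% of all genes. The 2 lower genes were Pink1 (-0.56 ± 0.15, adjusted p = 0.00411) and Wdfy3 (-0.56 ± 0.21, adjusted p = 0.0311, with overlapping groups). Tollip (0.83 ± 0.11, adjusted p = 3.01e-06), the reticulum receptor Rtn3 (0.73 ± 0.11, adjusted p = 9.74e-06) and Tax1bp1 (0.67 ± 0.12, adjusted p = 0.000113) rose. None of these 3 was called with total library size alone (0.50, 0.38 and 0.34), and Rtn3 stood at 0.06 with the expression trend removed.

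**Figure D5:**
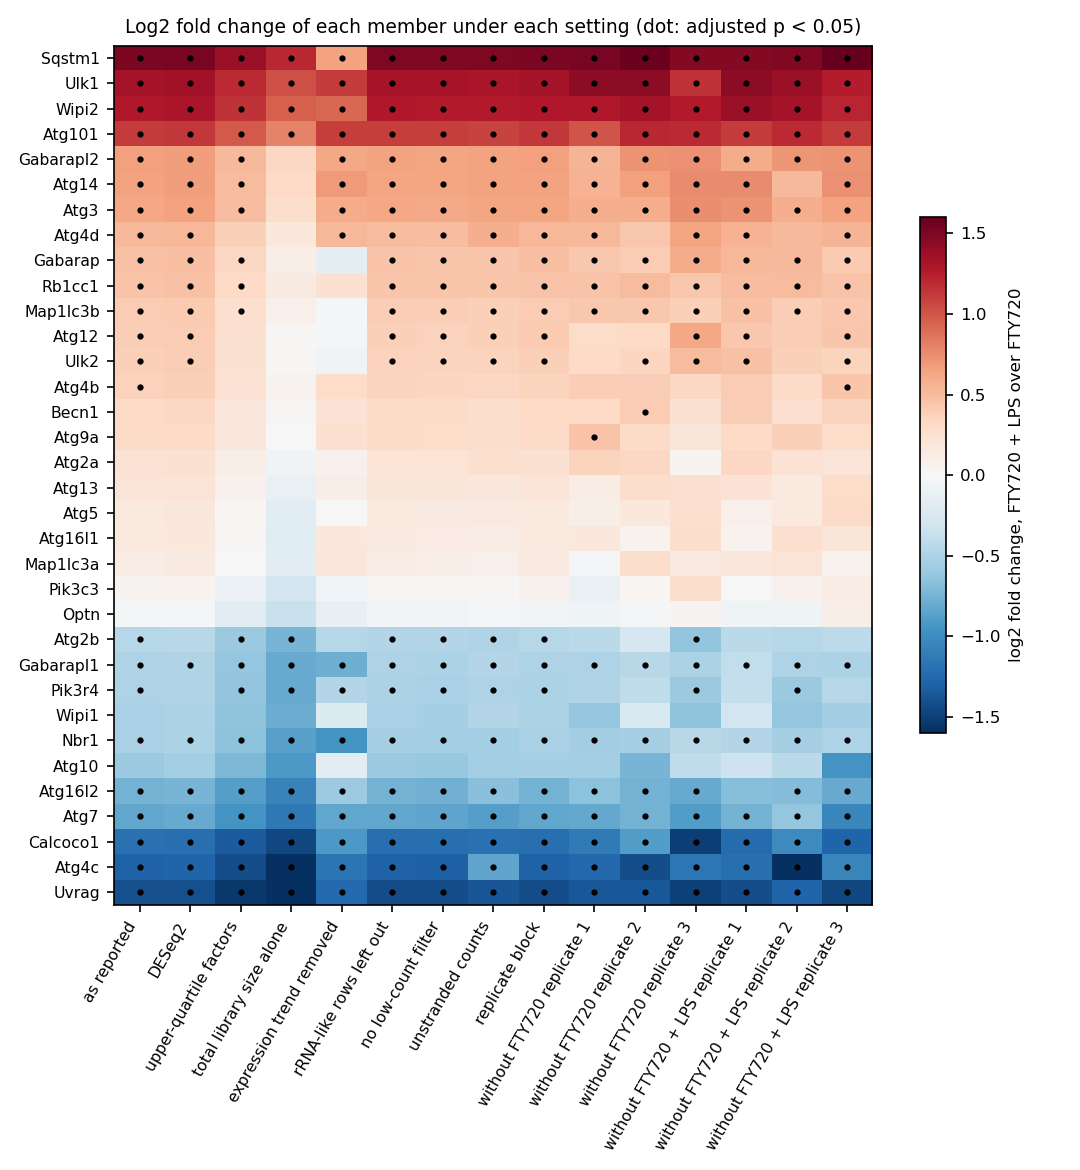
Log2 fold change (colour) of each tested member (rows, ordered by the reported value) under each of 15 settings (columns), with a dot where the adjusted p was under 0.05. The rows of Ulk1, Atg101, Wipi2 and Sqstm1 and those of Uvrag, Atg4c, Atg7, Gabarapl1, Calcoco1 and Nbr1 carry a dot in every column, and the columns for total library size and for the removed expression trend are on average the palest among the higher genes.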

How the data were processed

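The authors deposited raw read counts per gene symbol for each library, in the layout of STAR gene counts, with columns for both strands and for each strand. Software in the submitters' processing notes is STAR 2.5.1, Trimmomatic 0.33, CASAVA 1.8.2 and DESeq2, with build mm10; which gene annotation was counted is not stated there. Per the labels' protocols, rRNA was depleted and the libraries keep strand. Sense reads made up 98.4% to 98.9% of stranded gene reads. Rows naming no gene (unmapped, multimapping, ambiguous or outside genes) held 74.5% to 79.2% of reads and were left out.

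Counts were tested with edgeR 4.0.16 (R 4.3.3): quasi-likelihood test, TMM factors, filterByExpr with minimum count 10, Benjamini-Hochberg adjustment over 10124 of 24411 genes, threshold 0.05. Standard errors were derived from the fold change and the F statistic (log2 fold change over the root of F). The procedure was run on simulated counts in which few genes changed, in random directions and without a trend with expression. That run could not show how the calls depend on scaling. Single values were compared by exact permutation of libraries. A count of 0 allows up to 3 reads, 0.711 to 1.51 CPM; this covers counting error only. Lengths and overlaps came from GENCODE M21 (GRCm38, the same assembly as mm10), promoters from RefSeq on GRCm38.p6.

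The members and lists were chosen with earlier results of these data known. Every member was named, with values per library for those called and for the 2 most abundant uncalled ones of each role; of related lists, the called genes that changed most, at most 3 per list, at 1 or more mean log2 CPM. Alternatives were DESeq2 1.42.0, upper-quartile and total-size scaling, a removed expression trend (lowess, span 0.3), no rRNA-like rows, no filter, unstranded counts, a replicate block and leaving out each library.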

Additional observations from a re-analysis of the deposited data

Results flagged for a closer look

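Reads on the strand opposite to the gene, which the comparisons did not use, made up a larger share in every LPS library than in every FTY720 library for 2 members with at least 20 such reads in all. At Atg4c they were 8.42%, 12.5% and 8.22% of both strands with FTY720 and 31.7%, 32.7% and 41.7% with LPS, a mean of 35.4%. Their number was 8, 9 and 12 with FTY720 and 13, 18 and 10 with LPS. At Atg2a the share was 0%, 1.52% and 2.13% with FTY720 and 4.60%, 2.91% and 3.27% with LPS, a mean of 3.59% from 5 to 8 reads per library. Atg4d, with 67 such reads, went the other way, from 14.8%, 25.3% and 11.5% with FTY720 to 10.5%, 11.4% and 3.03% with LPS, and shares 1405 exonic bases with Kri1 on the other strand. No annotated gene shares exonic bases on the other strand with Atg4c or Atg2a.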

How the results depend on the processing

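Of 14 alternatives, total library size alone moved most: 4 members were higher (14 as reported), 1 related gene (16) and 761 of all genes (2362). With the expression trend removed 8 members were higher, and Ulk2 (-0.054), Atg12 (-0.013), Map1lc3b (-0.015) and Gabarap (-0.14) turned direction; the cause was not tested. DESeq2 gave 1529 genes lower in place of 2297. Leaving out 1 library gave 9 (without FTY720_LPS replicate 2) to 14 members higher and 6 to 9 lower. Members lower numbered 7 to 9 under all other settings. Of all calls, 57.1% were higher with DESeq2 and 51.5% with the trend removed (50.7% as reported). A replicate block gave 13 members higher and 9 lower. The labels do not say that equal numbers mark a shared pool, culture or day, so the numbers were not taken as pairs. Deviations of same-numbered libraries had correlations of -0.02, -0.03 and -0.07, and no library correlated best with its own number. Deviations centred within groups of 3 libraries cannot show that the libraries were unpaired. Replicates differed by more than sampling noise (chi-square per degree of freedom 1.30 to 4.92). No share within a role whose groups did not overlap turned direction under unstranded counts or with a library left out. For the 8 ratios the same 7 alternatives were chosen after seeing the data: 55 of 56 values moved by less than the spread between replicates, and Atg4b to Atg4c fell from 1.71 to 1.22 on the log2 scale with unstranded counts. At this depth members under 6 CPM, such as Atg4a and Atg10, could show only large changes.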
